A study of Mus musculus with 8 samples.

Results

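Fatty acid handling in mouse quadriceps was followed through 32 genes, which cover uptake and binding of fatty acids, their activation and carnitine-dependent import, mitochondrial beta-oxidation, electron transfer, and the PPAR receptors with some of their classical target genes. They were chosen by name, as the rows of the deposited count table that carry one of 32 listed gene symbols. All 32 were found among the 35494 symbols of the table, and all 32 passed the filter on low counts, as did 14112 genes in all. The source is bulk RNA sequencing of quadriceps from C57BL/6 wild-type males, with each library made from a different mouse. At 8 weeks of age the 4 scMC38 mice were given 1000000 subcutaneous MC38 cells, which derive from a mouse colon tumour, and the 4 control mice the same volume of PBS. Muscle was taken after 28 days, so the comparison asks how these genes differ in muscle of mice that carry a subcutaneous tumour. All animals were of a single strain and sex, the tumour is of a single cell line and grew under the skin rather than in the colon, and a whole-muscle sample mixes fibre types with vessel, fat and blood cells.

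As background, fatty acids reach the muscle fibre through lipoprotein lipase and membrane transporters, are bound by fatty acid binding proteins, and are activated to acyl-CoA. The carnitine palmitoyltransferases carry the acyl group into the mitochondrion, where a spiral of dehydrogenase, hydratase and thiolase steps shortens it and the electron transfer flavoprotein passes electrons to the respiratory chain. Malonyl-CoA, made at the mitochondrial surface by acetyl-CoA carboxylase 2 and removed by malonyl-CoA decarboxylase, inhibits the entry step. PPAR-alpha and PPAR-delta are nuclear receptors that bind fatty acids and drive many of these genes, and oxidative fibres hold more of the machinery than glycolytic fibres.

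None of the 32 genes was called at an adjusted p under 0.05 by edgeR's quasi-likelihood test, higher or lower. DESeq2 called 1, Acacb, as higher, in a fit that called 5.69% of all its genes higher, and none as lower. By edgeR, 1.2% of all tested genes were called, 0.737% higher and 0.468% lower. A list of this size would hold few calls at that rate. At an unadjusted p under 0.05 there were 3 of 32 (Acacb, Ppard and Ucp2, all with positive values), against 21% of all genes. Acacb was the member in which all 4 scMC38 libraries lay above all 4 controls, an order found in 6.82% of all genes. No member had all 4 scMC38 libraries below all 4 controls, an order found in 6.45% of all genes. The median log2 fold change, scMC38 minus control, was -0.10 over the members, with 9 positive and 23 negative, and 0.00087 over all tested genes. Without control 2 alone the median was 0.17 and 27 members were positive, and without control 1 and 2 together it was 0.40 with 28 positive. Both control 1 and 2 lay above both control 3 and 4 in 26 of 32 members, against 23.7% of all genes. Leaving them out therefore had to raise most values. Without scMC38 1 and 3 the median was 0.058 with 20 positive. Scaling by total counts alone, which raised the median of all genes by 0.11, gave 17 positive and 15 negative members and a median of 0.024. The sign of the members' median was thus not stable to these choices, in which control 2 alone was enough to turn it.

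The control mice differed widely among themselves in the oxidation genes. The 19 genes of activation, carnitine shuttle, beta-oxidation and electron transfer held 2.42 times as many counts scaled to library size (CPM) in control 2 as in control 4 at the median, from 0.645 times in Cpt1a to 4.90 times in Acaa2. The median SD of log2 CPM of these 19 genes was 0.55 among controls and 0.24 among scMC38 libraries. Over all genes it was 0.19 and 0.21. In 28 of 32 members the SD was larger in controls, as it was in 42.6% of all genes. In 23 of 32 members all scMC38 libraries lay inside the range of the controls, as they did in 13.2% of all genes.

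**Figure D1:**
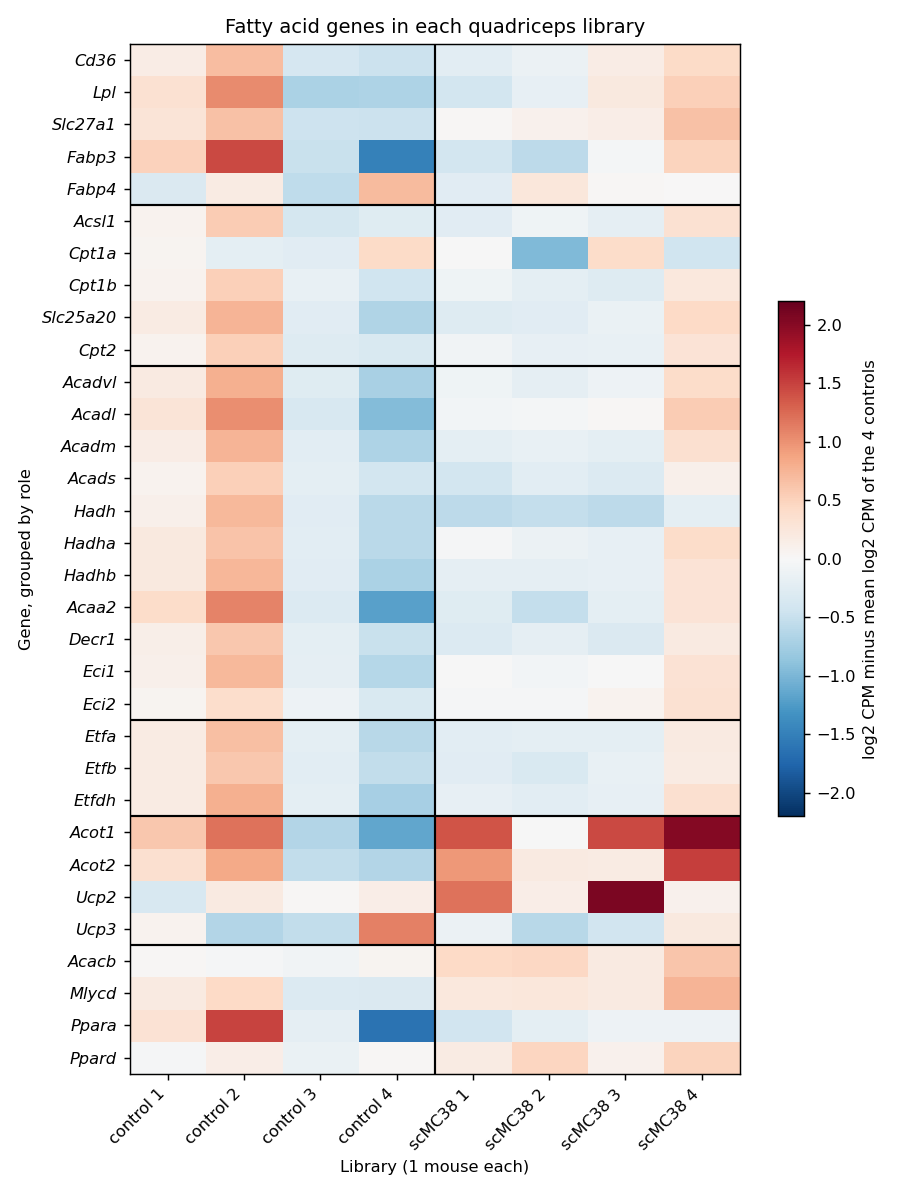
Heat map of log2 CPM of the 32 genes (rows, grouped by role) in the 8 libraries (columns), each minus the mean log2 CPM of the 4 controls. Control 2 is red and control 4 blue in most rows, while Acacb and Ppard differ little among controls and are red in scMC38.

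The same library order recurred in gene after gene. Control 2 was the highest of all 8 libraries in 22 of 32 members, and in 18 of the 19 oxidation genes, against 19.2% of all genes. Control 4 was the lowest of the 8 in 23 members, against 12.9% of all genes. Within the tumour group, scMC38 4 was highest in 28 members, against 27.6% of all genes. The members are not independent of each other here, since 1 library's order is shared by all genes measured in it.

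RefSeq promoter windows, from 250 bases before to 50 bases after the annotated start on GRCm38.p6, were matched by symbol and used for 27 of the 32 genes, 30 windows in all. This build is older than GRCm39, which the submitters name, and its coordinates serve only to identify the windows. Member windows on a chromosome that was set aside were not used, while the set of all windows kept it. The stretches below are the 250 bases before the start, 5′ to 3′ on the gene's strand. They show a promoter shared by 2 beta-oxidation genes, that of a further beta-oxidation gene, and those of 2 genes whose highest library was not control 2. Capitals mark, in Hadha, the 228 bases that also lie in the window of Hadhb, in Acadvl and Ucp3 the element AGGTCA, and in Acacb the element TATAAA.

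Hadha, chr5:30154981-30155230, minus strand: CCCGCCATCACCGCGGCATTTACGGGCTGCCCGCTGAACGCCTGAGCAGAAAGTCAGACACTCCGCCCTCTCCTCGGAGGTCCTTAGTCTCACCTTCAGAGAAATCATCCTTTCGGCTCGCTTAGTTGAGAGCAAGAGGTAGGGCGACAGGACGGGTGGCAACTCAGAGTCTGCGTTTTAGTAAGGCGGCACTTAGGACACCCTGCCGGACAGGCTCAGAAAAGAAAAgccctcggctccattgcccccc
Acadvl, chr11:70015429-70015678, minus strand: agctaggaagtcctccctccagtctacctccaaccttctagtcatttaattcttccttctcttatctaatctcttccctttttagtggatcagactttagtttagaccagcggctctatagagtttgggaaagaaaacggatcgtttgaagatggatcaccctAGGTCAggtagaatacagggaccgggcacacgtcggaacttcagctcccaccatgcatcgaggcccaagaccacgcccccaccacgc
Ucp3, chr7:100472741-100472990, plus strand: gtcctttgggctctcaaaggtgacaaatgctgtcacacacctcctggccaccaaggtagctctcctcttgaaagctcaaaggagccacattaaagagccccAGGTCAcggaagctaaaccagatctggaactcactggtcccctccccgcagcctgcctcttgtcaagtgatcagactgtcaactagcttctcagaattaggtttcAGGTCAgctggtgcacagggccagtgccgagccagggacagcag
Acacb, chr5:114165268-114165517, plus strand: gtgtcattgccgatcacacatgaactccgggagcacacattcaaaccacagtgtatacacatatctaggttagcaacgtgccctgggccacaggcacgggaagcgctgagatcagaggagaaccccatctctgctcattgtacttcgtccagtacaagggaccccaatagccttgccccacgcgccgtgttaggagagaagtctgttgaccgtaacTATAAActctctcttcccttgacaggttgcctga

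Hadha and Hadhb, which encode the alpha and beta subunits of the mitochondrial trifunctional protein, stand head to head, with annotated starts 273 bases apart. Short elements were searched on both strands of all 300 bases of each window. The direct repeat AGGTCANAGGTCA, the classical binding element of PPAR with its partner RXR, was in 0 of 30 member windows and in 0.0396% of all 32851 windows. A looser form, AGGNCANAGGNCA, was in 0 member windows and in 0.381% of all. TCAAGGTCA, the element of the estrogen-related receptors, was in 0 member windows and in 0.423% of all. The single element AGGTCA, which is also part of AGGTCANAGGTCA and TCAAGGTCA, was in 6 member windows (20.0%) and in 16.3% of all windows. Those 6 belong to Acacb, Acadm, Acadvl, Cd36, Cpt1a and Ucp3, and Ucp3 has it at 149 and 44 bases before its start. The GC box GGGCGG was in 20 member windows (66.7%) and 35.7% of all, and TATAAA in 1 member window, that of Acacb, and 13.6% of all. GC content had a median of 60.7% in member windows and 52.7% in all windows. These matches describe letters in a short window and say nothing about elements outside it.

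Among the genes of uptake and binding, Lpl, the lipase that frees fatty acids from circulating triglyceride, stood at 667, 1085, 326 and 331 CPM in controls 1 to 4 and at 398, 466, 614 and 763 CPM in scMC38 1 to 4. All 4 tumour libraries lay inside the range of the controls (log2 fold change -0.10, 95% interval -1.02 to 0.81). Cd36, the main fatty acid translocase, had nearly the same mean in both groups, 273 ± 106 and 273 ± 57.4 CPM (SD, n = 4), with an interval from -0.60 to 0.61. Slc27a1, a fatty acid transport protein, stood at 0.17 (-0.44 to 0.78).

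Fabp3, the binding protein of muscle and heart, was the uptake gene with the widest control range, at 490, 945, 246 and 123 CPM in controls 1 to 4. In scMC38 1 to 4 it stood at 261, 230, 335 and 481 CPM, again within the range of the controls (-0.46, interval -1.72 to 0.79). Fabp4, the binding protein of fat cells and capillary endothelium, had its highest value in control 4, at 411 CPM against 173 to 290 CPM in the other controls and 214 to 305 CPM in scMC38. Control 4 also held the most fat cell mRNA: the 7 adipocyte markers summed to 709 CPM there, to 55.3 to 115 CPM in the other controls and to 133 to 425 CPM in scMC38. Their part in the Fabp4 values was not tested. In a bulk sample, fewer cells of a type and less RNA per cell cannot be told apart.

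All 5 genes of activation and import had negative log2 fold changes, between -0.19 and -0.059, and adjusted p of at least 0.724. Cpt1b, the muscle form of the entry enzyme, stood at 290, 393, 245 and 201 CPM in controls 1 to 4 and at 256, 235, 224 and 320 CPM in scMC38 1 to 4 (-0.12, interval -0.60 to 0.35). Cpt1a, the form best known from liver, was far lower per length. Scaled to the longest protein-coding GENCODE M21 transcript it had 2.59 ± 0.583 CPM per kb in controls, where Cpt1b had 97.5 ± 28.5 CPM per kb (SD, n = 4). Cpt1a was also the exception in order: its highest library was control 4 and its lowest scMC38 2. The acyl-CoA synthetase gene Acsl1, the carnitine-acylcarnitine carrier gene Slc25a20 and the inner-membrane transferase gene Cpt2 stood at -0.08, -0.13 and -0.06, and each was highest in control 2.

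Of the 11 beta-oxidation enzymes, accessory steps included, 10 stood below 0 on the log2 scale, and edgeR called none. Hadh, the short-chain hydroxyacyl-CoA dehydrogenase, had the smallest p among them. It stood at 154, 233, 120 and 94.3 CPM in controls 1 to 4 and at 94.8, 98.8, 94.5 and 123 CPM in scMC38 1 to 4. Control 4 was the lowest of all 8, and the groups overlapped (-0.55, SE 0.25, adjusted p = 0.259, interval -1.13 to 0.030). Without control 2 the value was -0.26, and without control 1 and 2 it was -0.071 (adjusted p = 0.877). Control 1 and 2 were the highest controls, so leaving them out had to raise the value.

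Acaa2, the medium-chain thiolase, stood at 117, 189, 71.8 and 38.5 CPM in controls and at 73.9, 61.4, 75.7 and 108 CPM in scMC38 (-0.38, interval -1.34 to 0.58). This is a 4.90-fold range among the control mice and a 1.77-fold range among the tumour mice. Acads, the short-chain acyl-CoA dehydrogenase, was at 53.5, 73.1, 43.6 and 38.3 CPM in controls and at 38.0, 43.2, 40.9 and 54.4 CPM in scMC38 (-0.24, interval -0.70 to 0.22). Decr1, the dienoyl-CoA reductase needed for unsaturated chains, was at 83.6, 115, 65.7 and 54.5 CPM in controls and at 62.1, 66.5, 61.3 and 87.8 CPM in scMC38 (-0.20, interval -0.72 to 0.32). In each of these genes control 2 exceeded every tumour library, and scMC38 4 was the highest tumour library.

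Hadha and Hadhb, whose promoter windows overlap, had the same highest and the same lowest library. This was not particular to them: control 2 was highest in 18 and control 4 lowest in 16 of the 19 oxidation genes. Hadha ran from 171 CPM in control 4 to 399 CPM in control 2 and Hadhb from 147 to 394 CPM in the same libraries, with log2 fold changes of -0.03 (interval -0.62 to 0.55) and -0.15 (-0.79 to 0.49). The acyl-CoA dehydrogenase genes for very long, long and medium chains, Acadvl, Acadl and Acadm, stood at -0.09, -0.04 and -0.13. Acadl had the widest range of these, from 88.8 CPM in control 4 to 346 CPM in control 2. The enoyl-CoA isomerase genes Eci1 and Eci2 stood at -0.02 and 0.07. Eci2, at 0.07 with an interval from -0.28 to 0.43, was the enzyme gene with a positive value. Etfa and Etfb, the flavoprotein subunits, and Etfdh, its dehydrogenase, stood at -0.18, -0.19 and -0.15, with adjusted p of at least 0.674.

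**Figure D2:**
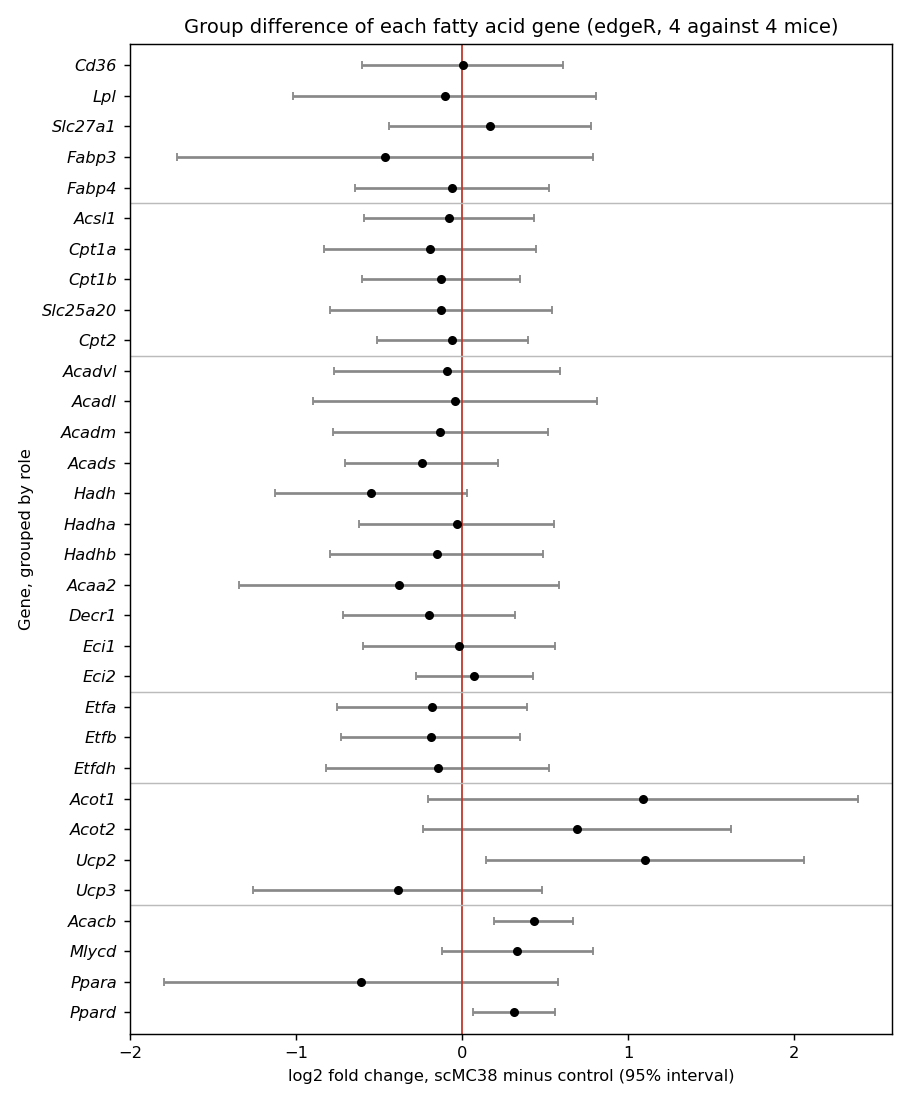
Log2 fold change of each of the 32 genes, scMC38 minus control (x axis), with its 95% interval from edgeR's quasi-likelihood fit, 4 mice per group. The intervals of Ucp2, Acacb and Ppard lie above 0, and 23 of the 32 intervals lie within 1 log2 unit of 0.

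The intervals show what the design could resolve. The half-width ran from 0.24 in Acacb to 1.29 in Acot1, with a median of 0.61 on the log2 scale. For 23 of the 32 genes the interval lay within 1 log2 unit of 0 on both sides. A p that misses the threshold does not show that the groups were alike within these limits.

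Of the thioesterases and uncoupling proteins, Acot1 and Acot2, the cytosolic and mitochondrial acyl-CoA thioesterases and textbook PPAR-alpha targets, had positive values that did not pass. Acot2 stood at 16.0, 22.4, 8.62 and 8.09 CPM in controls 1 to 4 and at 24.4, 14.5, 14.2 and 36.1 CPM in scMC38 1 to 4 (0.69, SE 0.41, adjusted p = 0.357). Acot1 was low, at 1.09, 1.64, 0.460 and 0.328 CPM in controls and at 1.89, 0.719, 1.96 and 2.93 CPM in scMC38 (1.09, SE 0.57, adjusted p = 0.307). The groups overlapped in both genes, through control 1 and 2. The transcripts are alike: 29.2% of the stretches of 31 bases in the longest Acot1 transcript also occur in Acot2 transcripts. The split of reads between the pair is therefore uncertain. Their sum, which does not depend on the split, was 17.1, 24.1, 9.08 and 8.41 CPM in controls and 26.3, 15.2, 16.2 and 39.1 CPM in scMC38, and overlapped too. No such stretch was shared between Cpt1a and Cpt1b, Ucp2 and Ucp3, Fabp3 and Fabp4, Ppara and Ppard, or Eci1 and Eci2.

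Ucp2, a mitochondrial carrier abundant in white blood cells, had the largest positive value of the 32, at 1.103 (SE 0.42, adjusted p = 0.186, interval 0.15 to 2.06). It stood at 14.5, 21.2, 18.8 and 20.4 CPM in controls and at 42.3, 20.5, 78.3 and 19.8 CPM in scMC38. Only scMC38 1 and 3 were above the controls, and scMC38 2 and 4 lay among them. The sums of white blood cell and marrow markers were also highest in scMC38 1 and 3. The 8 neutrophil markers summed to 431 and 3906 CPM in scMC38 1 and 3, to 10.2 and 31.7 CPM in scMC38 2 and 4 and to 0.728 to 7.22 CPM in controls. The 5 marrow progenitor markers summed to 45.5 and 398 CPM in scMC38 1 and 3 and to at most 0.355 CPM in each of the other 6. Bone markers summed to 2461 CPM in scMC38 3 and to 32.8 to 235 CPM in each of the other 7, most of it Col1a1. The bone marker Ibsp reached 137 CPM in scMC38 3, 40.6 CPM in scMC38 1 and no more than 1.40 CPM elsewhere. For Bglap these values were 60.8, 3.53 and 0.0185 CPM. Dmp1 was high only in scMC38 3 (13.6 CPM), with 1.27 CPM in scMC38 1 and 1.46 CPM in control 4. The 8 macrophage markers summed to 393 CPM in scMC38 1 and 552 CPM in scMC38 3, against 248 and 123 CPM in scMC38 2 and 4 and 113 to 153 CPM in controls. Without scMC38 1 and 3 the Ucp2 value was 0.12 (adjusted p = 0.705), and without scMC38 3 alone it was 0.55. Leaving out the libraries with the highest Ucp2 had to lower its value, so these fits say nothing on its source. The part of white blood cells or marrow in the Ucp2 values was not tested.

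Ucp3, the muscle uncoupling protein and a gene known to rise with circulating fatty acids, ran opposite to the oxidation genes among controls. It stood at 114, 69.6, 74.6 and 234 CPM in controls 1 to 4 and at 98.8, 70.8, 81.0 and 125 CPM in scMC38 1 to 4. Control 4, lowest for most members, was highest here, and control 2 was the lowest of the 8. The groups overlapped (-0.39, interval -1.26 to 0.48), and without control 4 the value was 0.13.

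Among the genes of malonyl-CoA control and the PPAR receptors, Acacb, which encodes acetyl-CoA carboxylase 2, stood at 330, 319, 306 and 338 CPM in controls 1 to 4 and at 437, 442, 372 and 492 CPM in scMC38 1 to 4. Every tumour library was above every control, and the controls differed by no more than 1.105-fold. Group means were 323 ± 13.9 CPM in controls and 436 ± 48.9 CPM in scMC38 (SD, n = 4). On the log2 scale this is 0.43 (SE 0.11, interval 0.19 to 0.67). Its unadjusted p was 0.00284 and its adjusted p 0.0849, so edgeR did not call it. With 1 library left out its value lay between 0.37 and 0.50 and its adjusted p between 0.0589 and 0.225.

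Other processing called Acacb. DESeq2 gave an adjusted p of 0.00163, in a fit that called 5.69% of all its genes higher, and scaling by total counts alone gave 0.0290, in a fit that called 1.53% of genes higher. The latter scaling shifted the median of all genes by 0.11, and Acacb stood at 0.53 in it. With the mitochondrially encoded rows left out before scaling it stood at 0.42 (adjusted p = 0.0879).

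Mlycd, malonyl-CoA decarboxylase, which removes the product of Acacb, also had a positive value. It stood at 77.8, 91.6, 54.8 and 54.4 CPM in controls and at 79.3, 80.4, 77.9 and 113 CPM in scMC38. Control 2 exceeded 3 of the 4 tumour libraries, and the difference did not pass (0.33, SE 0.20, adjusted p = 0.366).

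Ppard, the receptor PPAR-delta that predominates in muscle, stood at 36.5, 40.7, 33.6 and 37.4 CPM in controls and at 42.0, 51.2, 39.4 and 51.6 CPM in scMC38. The groups overlapped only in control 2 and scMC38 3 (0.31, SE 0.11, unadjusted p = 0.0190, adjusted p = 0.158). Scaled by total counts alone it was called (0.41, adjusted p = 0.0387), and DESeq2 gave an adjusted p of 0.107. Ppara, the receptor PPAR-alpha, was at 9.68, 21.8, 6.72 and 2.51 CPM in controls and at 5.74, 6.68, 7.13 and 7.13 CPM in scMC38 (-0.61, interval -1.79 to 0.58). Controls of Ppara differed by 8.66-fold and tumour libraries by 1.24-fold. Per kb of transcript, Ppard was at 11.3 ± 0.893 and Ppara at 2.98 ± 2.42 CPM per kb in controls (SD, n = 4).

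**Figure D3:**
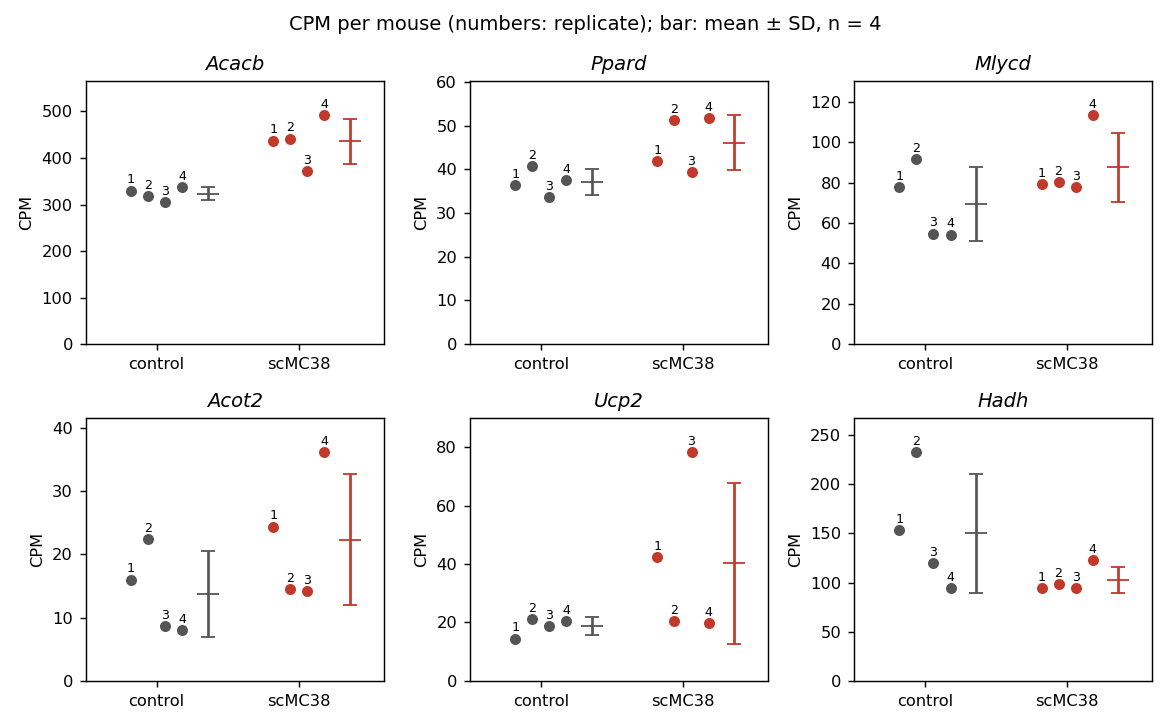
CPM of 6 genes (y axes from 0) in each mouse, with replicate numbers beside the points and the mean ± SD of 4 mice at the right of each group. Acacb separates the groups, Ppard nearly does, Ucp2 is high in scMC38 1 and 3 only, and in Hadh, Mlycd and Acot2 control 1 and 2 lie above control 3 and 4.

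Mb, myoglobin, the oxygen store of oxidative fibres, stood at 2144, 4409, 904 and 192 CPM in controls 1 to 4 and at 650, 728, 1201 and 1401 CPM in scMC38 1 to 4. The 8 slow and type 2A fibre genes summed to 1390, 3380, 848 and 49.1 CPM in controls and to 378, 118, 599 and 724 CPM in scMC38. Mitochondrially encoded transcripts made up 24.3%, 29.7%, 16.3% and 16.8% of counts in controls and 14.4%, 15.7%, 17.96% and 18.9% in scMC38. The group means of that share were 21.8% ± 6.44 and 16.7% ± 2.05 (SD, n = 4, two-sided exact permutation p = 0.257). Mb, the sum and the mitochondrial share were each highest in control 2 among the 8 libraries and in scMC38 4 among tumour libraries. The highest gene of the list in every library but control 4 was Myh2, the type 2A myosin, at 1306, 2296, 529 and 9.43 CPM in controls and 133, 84.8, 544 and 561 CPM in scMC38. The single genes of the list did not all share its order: 7 of 8 were higher in control 3 than in control 1, and 6 of 8 were highest in scMC38 1 among tumour libraries. Of the slow and type 2A list, all 8 had negative log2 fold changes and none was called, with a median of -1.91. Standard errors reached 1.94 (Myh7), and control 2 was the highest of the 8 libraries in all 8 genes. Of 7 type 2X and 2B fibre genes, 4 were positive and 3 negative, with a median of 0.16 and none called. They summed to 61054 to 99338 CPM in controls, lowest in control 2, and to 68896 to 104547 CPM in scMC38. The part of fibre composition in the members' values was not tested.

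**Figure D4:**
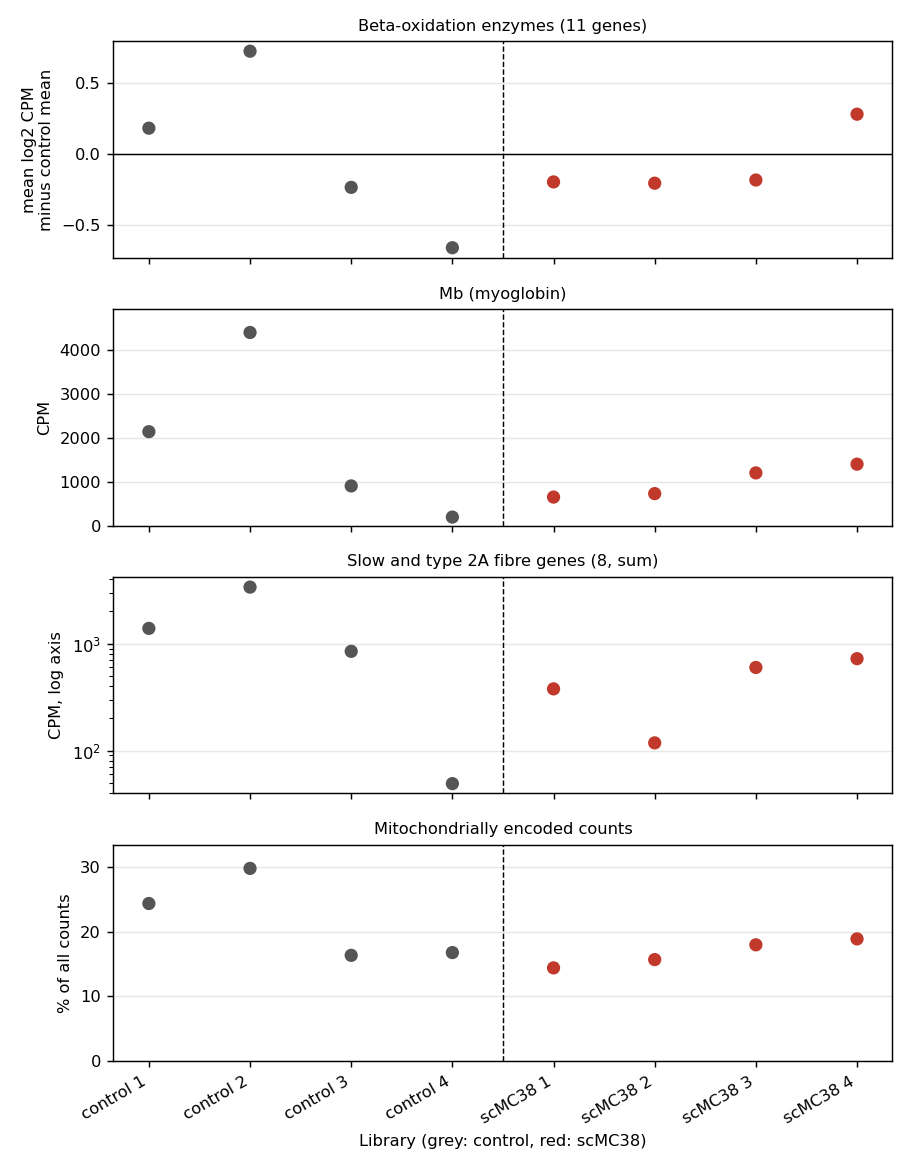
Per library (x axis), from top to bottom: the level of the 11 beta-oxidation enzymes (mean log2 CPM minus the control mean), Mb in CPM, the summed CPM of 8 slow and type 2A fibre genes on a log axis, and the percentage of counts from mitochondrially encoded genes. Control 2 is the highest library in all 4 panels, and the levels of the enzymes run from -0.66 in control 4 to 0.72 in control 2.

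As a check of the tissue, the skeletal muscle genes were abundant in all libraries: 8 muscle fibre genes, Acta1 and Ckm among them, summed to 68052 to 98658 CPM. Total counts per library ran from 50465092 to 62105453. Ucp1, the defining brown fat gene, was at most 0.606 CPM in any library. Markers of endothelium, a further source of Fabp4 and Cd36, summed to 299 to 494 CPM in controls and 257 to 430 CPM in scMC38. Red cell genes were higher in every tumour library (1642 to 2864 CPM) than in any control (501 to 1086 CPM), with 6 of 6 called.

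Other genes of the pathway were examined by 5 lists, of which 102 genes were in the table and 96 were tested. None was called by edgeR, and 14 had an unadjusted p under 0.05, against 21% of all genes. All 4 scMC38 libraries lay above all controls in 2 genes, Tfeb among them, against 6.82% of all genes. They lay below all controls in 4 genes, Aqp7, Cav1, Pex7 and Ncoa2, against 6.45% of all genes. The median log2 fold change over the 96 was -0.07, with 38 positive and 58 negative.

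Among 16 other PPAR-responsive genes, 10 were positive and 6 negative. Aqp7, a channel that releases glycerol, stood at 12.9, 19.2, 11.6 and 16.0 CPM in controls and at 6.11, 8.72, 8.62 and 9.67 CPM in scMC38. Every tumour library was below every control, and edgeR did not call it (-0.85, SE 0.19, adjusted p = 0.0737), while DESeq2 did (adjusted p = 0.00292). Pnpla2, adipose triglyceride lipase, stood at 0.31 (adjusted p = 0.404). The widely used PPAR markers Pdk4 (0.36, adjusted p = 0.496), Angptl4 (-0.19, adjusted p = 0.890) and Plin2 (-0.02, adjusted p = 0.922) were named after their values were seen. These targets did not share a direction.

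Of 31 regulators, 13 were positive and 18 negative. Lpin1, the lipin that is both a phosphatase and a PPAR coactivator, stood at 443, 353, 442 and 531 CPM in controls and at 741, 719, 517 and 798 CPM in scMC38 (0.65, SE 0.17, adjusted p = 0.0964). Tfeb, a transcription factor of lysosomal and lipid genes, went from 67.0 ± 5.07 to 86.8 ± 10.1 CPM (SD, n = 4; 0.37, SE 0.10, adjusted p = 0.09996). DESeq2 called both (adjusted p = 0.00476 and 0.0204). Esrra, the estrogen-related receptor that acts with PGC-1 on oxidative genes, stood at -0.58 (SE 0.20, adjusted p = 0.149). It ran from 69.9 CPM in control 4 to 137 CPM in control 2 and from 59.4 to 71.5 CPM in scMC38, the library extremes of the oxidation genes in controls.

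The remaining lists held small differences. Of 13 other uptake and activation genes, 7 were positive and 6 negative, led by Dbi, the acyl-CoA binding protein (-0.36, adjusted p = 0.156), Vldlr, a lipoprotein receptor (0.37, adjusted p = 0.184), and Cav1, the caveolar coat protein (-0.35, adjusted p = 0.219). Of 21 other carnitine and mitochondrial genes, 15 were negative, with Etfrf1, a regulator of the electron transfer flavoprotein (-0.37, adjusted p = 0.228), Slc22a5, the carnitine transporter (-0.33, adjusted p = 0.267), and Acot13, a thioesterase (-0.38, adjusted p = 0.286), at the smallest p. Of 20 peroxisomal genes, 14 were negative, among them Pex7, an import receptor (-0.20, adjusted p = 0.163), and Abcd3, a transporter of the peroxisomal membrane (-0.20, adjusted p = 0.299). Tmlhe was not analysed here.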

How the data were processed

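The authors deposited 1 table of estimated counts by gene and library, with no scaling for depth or length. The submitters' processing notes name Salmon 1.10.3, fastp 1.0.1, R 4.4.3 and GRCm39. No source used here gives the annotation release or strand handling. Rows without a symbol (144, at most 0.00403% of counts) were left out, rows of repeated symbols summed, and values rounded. Total counts ran from 50465092 to 62105453 per library, so the spread between mice sets the precision. Libraries are separate samples by their titles, and p-values measure the spread between these 8.

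All 14112 genes passing filterByExpr (minimum count 10, minimum total 15) were fitted with edgeR 4.0.16 in R 4.3.3 (TMM scaling, robust quasi-likelihood F test, scMC38 minus control, no covariate), with Benjamini-Hochberg adjustment over all genes and a threshold of 0.05. CPM are counts scaled to TMM library sizes, and their log2 form a prior count of 2. Standard errors are those implied by F, and 95% intervals use the moderated degrees of freedom. DESeq2 1.42.0, other scalings and filters, a replicate block and leaving out libraries were alternatives.

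Members and lists were chosen with earlier results of these data known. Values in every library are given for called members, members whose groups did not overlap and the 12 with the smallest p, plus Lpl, Fabp3, Cpt1b and marker genes chosen after their values were seen. In the other lists up to 3 genes with the smallest p are named, except 1 that is not reported here.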

Additional observations from a re-analysis of the deposited data

Results flagged for a closer look

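In 10 members the scMC38 4 library stood apart from the other 3 tumour libraries, with a gap to its nearest neighbour that took up most of the group's whole range, above Dixon's 95% critical value. These were Slc25a20 at 80.7, Acadvl at 283, Acadl at 252, Acadm at 293, Hadh at 123, Hadhb at 292, Eci1 at 94.2, Etfa at 159, Etfdh at 130 and Mlycd at 113 CPM. In all 10 it was the highest value, and no control library was set apart in this way among the 64 groups of 4 examined. Chance alone sets about 1 in 20 groups apart by this measure, and genes that move together are set apart together. In the same library Mb (1401 CPM) and the sum of the slow and type 2A fibre genes (724 CPM, most of it Myh2) were also the highest of the tumour group, though 6 of those 8 genes were highest in scMC38 1. Their part in these values was not tested.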

How the results depend on the processing

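The count of 0 members called higher by edgeR became 2 with total counts alone (Acacb and Ppard) and 1 with DESeq2 (Acacb), and stayed 0 under the other alternatives run. No alternative called a member lower. Over all genes, total counts alone called 1.53% higher, and DESeq2 called 5.69% of 15845 genes higher and 570 of them lower. Of the other pathway genes, 1 was called higher with total counts alone (Tfeb) and 2 with DESeq2 (Lpin1 and Tfeb), and 1 lower with DESeq2 (Aqp7). The cause of these differences was not tested. The members' median log2 fold change lay between -0.24 (without scMC38 4) and 0.17 (without control 2) when 1 library was left out, and was 0.40 without control 1 and 2.

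The sign of single members also changed, while none of these members was called in any setting. With total counts alone the values were Lpl 0.024, Fabp4 0.040, Acsl1 0.028, Cpt2 0.052, Acadvl 0.025, Acadl 0.082, Hadha 0.078 and Eci1 0.10. With mitochondrially encoded rows left out it was Cd36 -0.015. Without control 1 and 2 the values were Lpl 0.76, Fabp3 0.81, Acsl1 0.28, Cpt1b 0.21, Slc25a20 0.40, Cpt2 0.28, Acadvl 0.48, Acadl 0.75, Acadm 0.38, Acads 0.095, Hadha 0.43, Hadhb 0.39, Acaa2 0.52, Decr1 0.20, Eci1 0.46, Etfa 0.29, Etfb 0.24, Etfdh 0.40 and Ppara 0.52. Without scMC38 1 and 3 they were Lpl 0.054, Fabp4 0.079, Acsl1 0.11, Slc25a20 0.063, Cpt2 0.061, Acadvl 0.048, Acadl 0.13, Acadm 0.048, Hadha 0.11, Eci1 0.082 and Etfdh 0.0032. When 1 library was left out the ranges were Cd36 -0.14 to 0.28, Lpl -0.31 to 0.34, Fabp3 -0.78 to 0.19, Fabp4 -0.22 to 0.22, Acsl1 -0.23 to 0.14, Cpt1a -0.45 to 0.0011, Cpt1b -0.26 to 0.077, Slc25a20 -0.32 to 0.17, Cpt2 -0.18 to 0.15, Acadvl -0.29 to 0.23, Acadl -0.28 to 0.39, Acadm -0.32 to 0.17, Hadha -0.20 to 0.21, Hadhb -0.34 to 0.14, Acaa2 -0.65 to 0.076, Decr1 -0.35 to 0.030, Eci1 -0.20 to 0.27, Eci2 -0.031 to 0.22, Etfa -0.35 to 0.080, Etfb -0.35 to 0.042, Etfdh -0.35 to 0.17, Ucp3 -0.58 to 0.13, Ppara -0.93 to 0.079. The members Slc27a1, Hadh, Acot1, Acot2, Ucp2, Acacb, Mlycd and Ppard kept their direction in all 17 alternatives.

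Same-numbered libraries did not deviate together (r of their deviations across genes -0.11, -0.28, -0.0058 and -0.24). The labels do not say whether equal numbers pair mice, and these correlations cannot exclude it. With the replicate block no member was called, Acacb stood at 0.43 (adjusted p = 0.272), the whole table had 0 genes higher and 1 lower, and the sign changed in Lpl 0.040, Fabp4 0.011, Acadl 0.11, Hadha 0.015 and Eci1 0.056.

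With 4 mice per group, a log2 difference within the median interval half-width of 0.61 was not resolved for a typical member. Depth was at least 50465092 counts per library.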
